A study of Mus musculus with 2 samples.

Results

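Complement components and receptors were followed here through 7 genes: the components C3, C4b, Cfb and Cfp, the receptors C3ar1 and C5ar1 and the membrane regulator Cd55. They were taken by name from a list that was made with earlier results of these data known. They are 7 of the 21041 genes in the deposited single-cell matrix. Another 39 complement genes, chosen by name, served as context. Of these, 33 were in the matrix, and Mbl1, Mbl2, Cfd, C8a, C9 and Vsig4 were not analysed here.

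Complement is a set of plasma and tissue proteins that cut one another in a cascade. The classical pathway starts with C1q and its proteases C1r and C1s, which cut C4 and C2, and the alternative pathway uses factor B and the stabilising protein properdin. The pathways meet at C3, whose fragment C3a signals through a receptor on immune cells, as C5a from C5 does, while surface proteins such as CD55 take the C3-cutting enzymes apart. In gut tissue, complement proteins are known to be made by stromal cells, macrophages and epithelium as well as to arrive from the blood.

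The cells came from distal colon adenomas of mice of the strain Apcmin;LSL-mTERT at 25 weeks of age, as 1 library labelled G0+T and 1 labelled G4+T. Apcmin mice carry a mutant Apc allele and grow intestinal adenomas, and LSL-mTERT is a telomerase reverse transcriptase allele behind a removable stop cassette. Both groups carry both alleles, and no source used here gives the recombinase that removes the stop, the meaning of G0, G4 and T or how many animals or adenomas were pooled. The series title names telomeric chromosomal instability as the subject of the comparison.

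The authors' class file calls all 6189 cells of barcode suffix 1 CIN_high and all 7908 cells of suffix 2 CIN_low. The suffixes match the numbers in the titles, but every cell name starts with the G0 prefix, so no cell was assigned to a titled sample here, and the classes are called the CIN_high and the CIN_low library. Each class is 1 library, so no test between them can be made. No p-value is given, and every interval below is an exact 95% interval that covers counting error only. A level is the mean over cells of the UMIs (unique molecules) of a gene per 10000 UMIs of the cell, and a ratio is one library's level over the other's. Intervals of ratios are for summed UMIs, which weight deep cells more, so a ratio of levels can lie outside its interval.

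Cells held a median of 6448 (CIN_high) and 7154 (CIN_low) UMIs, 51868113 and 74733715 in all, and 11 barcodes occurred in both libraries. The authors' types differed in number: fibroblasts were 966 cells (15.6%) of the CIN_high and 21 cells (0.266%) of the CIN_low library, and myeloid cells were 2930 and 5348. In each of the 7 named types all 5 markers of the type's own list had UMIs in both libraries, at a higher sum than any other type's list. The summed level of 5 fibroblast markers was 104.1 and 121.4 in fibroblasts, and that of 5 epithelial markers was 84.3 and 78.1 in epithelial cells.

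The 250 bases before the RefSeq start of 3 of the genes are shown because the results below turn on where these genes were found: C3 in fibroblasts and myeloid cells, Cd55 in fibroblasts and enterocytes, and the receptor gene C3ar1 in myeloid cells. They are RefSeq sequences (GRCm38.p6), each 5′ to 3′ on the minus strand, at chr17:57228137-57228386 (C3), chr1:130462745-130462994 (Cd55) and chr6:122856158-122856407 (C3ar1). The last overlaps by its final bases the gene bounds given below, which are from another annotation (GENCODE). Capitals mark letters that match TATAAA (given strand), TTGCNNAA (C/EBP), TTCNNNGAA (STAT), GAGGAA (PU.1), GGGCGG (GC box) or the NF-kB motif, the last 5 on either strand.
C3: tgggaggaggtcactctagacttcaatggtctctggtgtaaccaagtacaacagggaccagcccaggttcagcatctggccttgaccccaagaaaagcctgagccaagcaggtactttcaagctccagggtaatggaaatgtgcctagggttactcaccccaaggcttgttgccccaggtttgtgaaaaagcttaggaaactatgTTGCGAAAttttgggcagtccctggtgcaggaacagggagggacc
Cd55: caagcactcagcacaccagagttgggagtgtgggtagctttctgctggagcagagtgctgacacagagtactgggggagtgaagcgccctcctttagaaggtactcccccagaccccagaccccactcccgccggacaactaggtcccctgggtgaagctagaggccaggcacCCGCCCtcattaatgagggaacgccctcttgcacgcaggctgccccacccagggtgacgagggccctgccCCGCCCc
C3ar1: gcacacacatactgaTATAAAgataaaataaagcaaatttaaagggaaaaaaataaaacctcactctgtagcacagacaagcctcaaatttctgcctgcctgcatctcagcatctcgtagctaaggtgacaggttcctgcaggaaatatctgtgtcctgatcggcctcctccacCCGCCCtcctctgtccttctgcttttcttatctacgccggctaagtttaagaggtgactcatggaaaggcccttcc
The C3 window held 1 C/EBP match, TTGCGAAA, which began 45 bases before the start. Such a match was present in 9.56% of the 32851 promoter windows searched. The Cd55 window held a pair of GC boxes, 77 and 7 bases before the start, and the C3ar1 window held a GC box 76 bases and a TATA match 235 bases before it. GC boxes were present in 32.7% of windows and TATA matches in 7.59%. The PU.1, STAT and NF-kB letters were in none of the 3 windows. In all, 5 of the 7 genes had a RefSeq entry.

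C3, the component on which all pathways meet (chr17:57203970-57228136, minus strand, mm10), was highest in fibroblasts in both libraries. Its fibroblast level was 20.97 in the CIN_high library, and 16.5 among the few CIN_low fibroblasts. Myeloid cells followed at 2.18 and 2.96, then pericytes at 0.892 and 0.954 and endothelial cells at 0.843 and 0.849. Epithelial cells had 0.328 and 0.181, T and NK cells 0.145 and 0.221, and B cells 0 and 0.132. The libraries' ranges of mean levels separated all neighbours in this order except epithelial cells from T and NK cells. By summed UMIs pericytes were below endothelial cells, at 0.662 and 0.924 against 0.832 and 1.043, with overlapping counting intervals. Those of T and NK cells (0.126 to 0.320) and B cells (0 to 0.164) overlapped in the CIN_high library. The order of these neighbours is thus not resolved.

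C4b, which supplies the C4 that classical and lectin pathway proteases cut (chr17:34728380-34743882, minus strand), was also highest in fibroblasts, at 18.1 and 10.4. Pericytes followed at 4.66 and 0.299, and the ranges of the types below fibroblasts overlapped down the order as far as T and NK cells. No C4b UMI was found in 40 and 93 B cells, and such a 0 allows a UMI in up to 7.5% and 3.23% of cells (3 counts of the total), which limits cells with a UMI and not cells that express the gene. C4b has a near-identical copy, C4a, about which the authors' counting is not described. C4a was listed at 0.00809 and 0 in fibroblasts, and how reads were split between the copies is uncertain.

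Within fibroblasts, C3, C4b and Cd55 differed by state. The 987 fibroblasts of both libraries were clustered without the complement genes, and nearly all of them came from the CIN_high library. The cluster led by Pi16, Gas1 and Mfap5 (122 cells, all CIN_high) had C3 at 44.4, C4b at 19.8 and Cd55 at 16.8. The cluster led by Sfrp2 and Ccl11 (468 CIN_high cells) had C3 at 23.4, C4b at 23.7 and Cd55 at 6.78. The cluster led by Rbp4, Sox6 and Bmp3 (193 CIN_high cells) was lowest of the 4 large clusters, with C3 at 3.94, C4b at 3.65 and Cd55 at 0.192. The fourth was led by Cxcl9, Nrg1 and Agt (146 CIN_high and 13 CIN_low cells). Its C3 was 17.7 and 8.06, its C4b 19.1 and 6.39 and its Cd55 1.36 and 0.159. Cfb ran from 0.730 in the Sox6 cluster to 3.76 in the Pi16 cluster of the CIN_high library.

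Fibroblasts were rare in the CIN_low library, and the cell types that held most C3 and C4b molecules differed between the libraries. Fibroblasts held 74.8% of the 19418 C3 UMIs of the CIN_high library but 2.78% of the 12183 C3 UMIs of the other, where myeloid cells held 90.1%. For C4b, fibroblasts held 91.9% of 13192 UMIs against 27.9% of 813. The share of all cells that were fibroblasts moved with these values, and a difference in tissue sampling and one in tumour makeup cannot be told apart here.

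**Figure D1:**
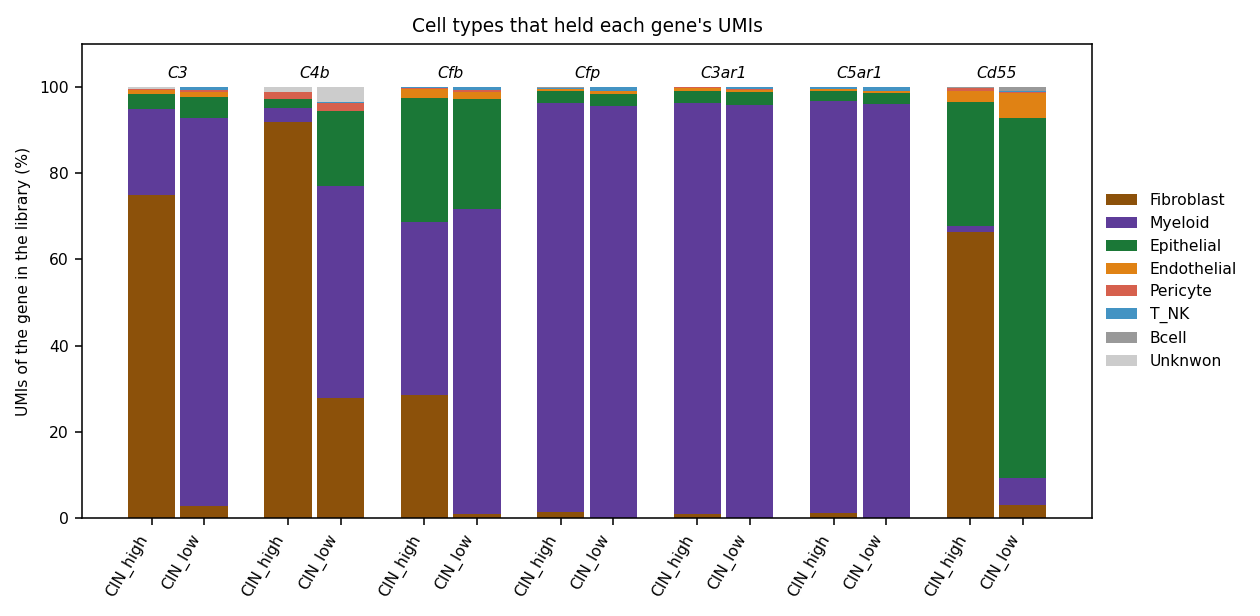
Share of each gene's UMIs (y axis, percent of the library's UMIs of that gene) that lay in each deposited cell type, for the CIN_high and the CIN_low library. Fibroblasts held 74.8% (CIN_high) and 2.78% (CIN_low) of C3 UMIs, while myeloid cells held about 95% of Cfp UMIs in both.

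The 20 cells of the type spelled Unknwon in the deposited file also carried C4b. Its level was 17.6 in the 18 CIN_high cells, all of which had a UMI, and 22.6 in the 2 CIN_low cells. C3 was 11.7 in the former and was not seen in the latter. Fibroblast markers summed to 10.1 and 9.47 in these cells, with Lum and Pdgfra at 0 in both libraries, and all 5 endothelial, 5 T and NK and 5 B cell markers were at 0. Of 7 macrophage markers 3 had UMIs (summed level 69.1 and 58.8), with Adgre1, Cd68 and Ms4a7 at 0 in both libraries. Both CIN_low cells were marked as doublets.

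Cfb, which codes for factor B, the protease of the alternative pathway (chr17:34856374-34862518, minus strand), was spread more widely. Its level was 2.30 and 3.69 in fibroblasts, 1.12 and 1.49 in myeloid cells, 0.809 and 0.756 in epithelial cells and 0.358 and 0.858 in endothelial cells. Epithelial and endothelial cells overlapped over the libraries, as did endothelial cells and pericytes (0.373 and 0.366). T and NK cells were lower, at 0.0394 and 0.162. Epithelial cells held 28.7% and 25.5% of all Cfb UMIs, a share that was near in both libraries.

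Cfp, which codes for properdin, the protein that holds the alternative pathway enzyme together (chrX:20925454-20931555, minus strand), was a myeloid gene here. Its level was 1.90 and 1.78 in myeloid cells and at most 0.390 in any other type of either library. Myeloid cells held 94.8% and 95.5% of its UMIs.

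C3ar1, the receptor gene for C3a (chr6:122847138-122856161, minus strand), was at 1.40 and 1.10 in myeloid cells and at most 0.116 in any other of the 7 named types, leaving aside the Unknwon cells. C5ar1, the receptor gene for C5a (chr7:16246743-16259540, minus strand), was at 2.24 and 2.90 in myeloid cells and at most 0.225 elsewhere. For both genes the types below myeloid cells overlapped over the libraries down to the lowest. Over all epithelial cells together, the receptor UMIs stood in about the same ratio to a myeloid gene as in myeloid cells. C3ar1 had 0.0798 and 0.0733 UMIs per UMI of C1qa in epithelium and 0.0667 and 0.0742 in myeloid cells. C5ar1 had 0.0197 and 0.0117 UMIs per UMI of the neutrophil gene S100a8 in epithelium and 0.0219 and 0.0129 in myeloid cells. Cells of the Complement+_stem_cell subtype, described below, held 48 of the 84 and 114 of the 151 epithelial C3ar1 UMIs. They also held 38 of the 79 and 115 of the 230 epithelial C5ar1 UMIs, at 0.613 and 0.357 per UMI of S100a8. In the S100a8/s100a9+_cell subtype of the CIN_low library this ratio was 0.00403. The C5ar1 ratio of the whole epithelium thus averaged over unlike subtypes.

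Cd55, the gene for decay-accelerating factor, which takes C3 convertases apart (chr1:130439027-130462744, minus strand), had another profile. It was highest in fibroblasts at 5.78 and 2.74. B cells (1.16 and 0.215), epithelial cells (0.887 and 0.461), endothelial cells (0.669 and 0.650) and pericytes (0.711 and 0.0842) overlapped. Myeloid cells were at 0.0956 and 0.0392, and T and NK cells at 0.0331 and 0.0196. Its paralog Cd55b is near enough in sequence that the split of reads between the copies is uncertain.

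**Figure D2:**
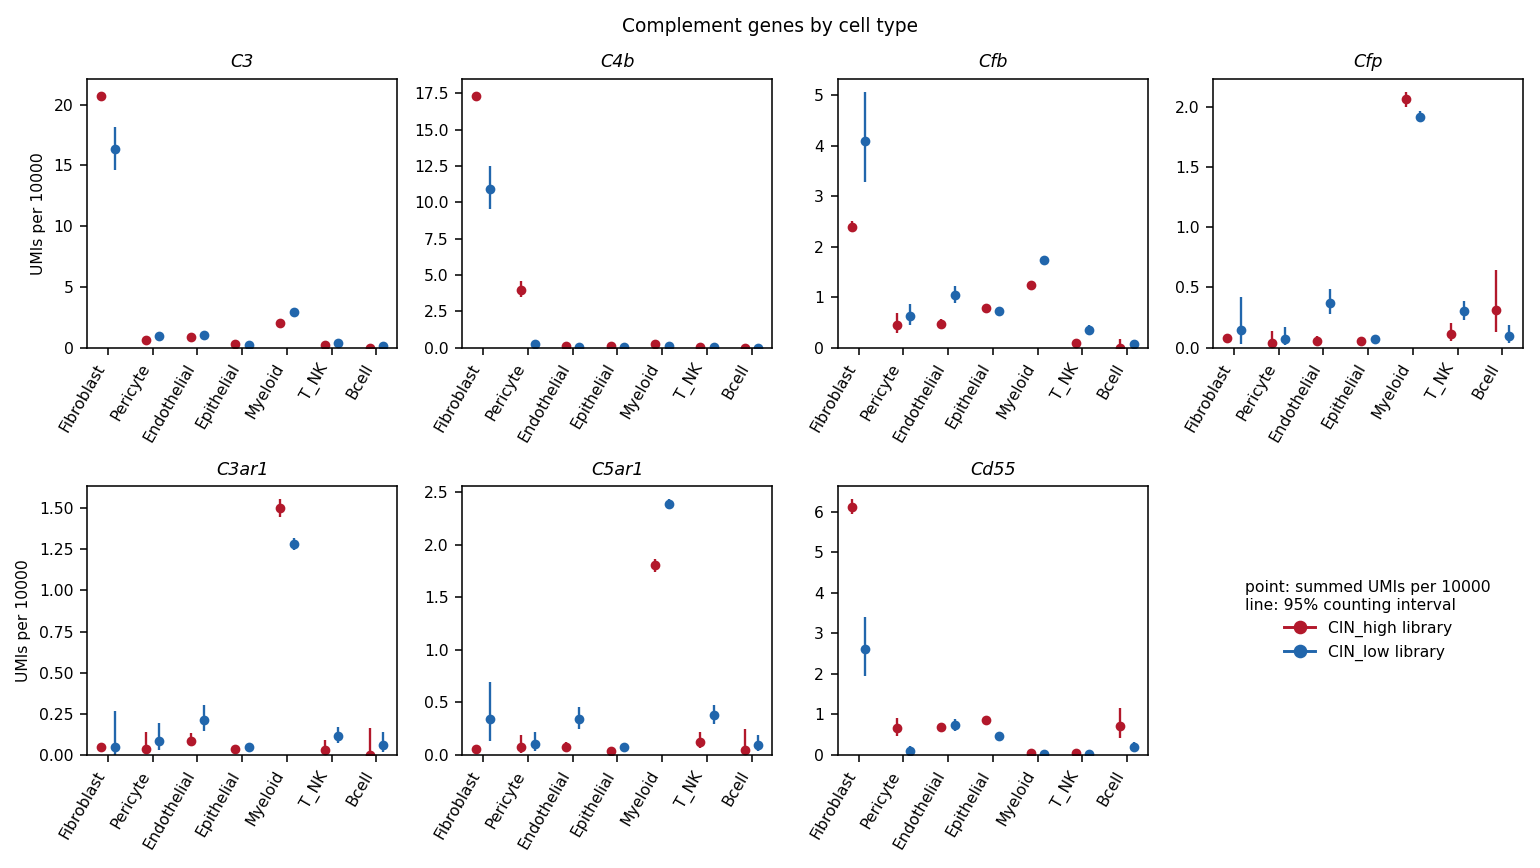
Summed UMIs of each member per 10000 UMIs (y axis, linear from 0) in 7 cell types of the CIN_high and the CIN_low library, with 95% counting intervals. C3, C4b, Cfb and Cd55 peaked in fibroblasts and Cfp, C3ar1 and C5ar1 in myeloid cells, in both libraries.

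Among the 7 named types, each of the 7 genes was highest in the same type in both libraries. Over 30 points (types and epithelial subtypes of each library with at least 20 cells, which share libraries and nested cells), the level profile of C3 was most like those of Pdpn, Lrp1, Adamtsl4, Mmp2 and Vcan (Pearson r from 0.935 to 0.908, on log2 levels, as a description). C4b was most like Ogn, Bmp5, Efemp1, Adam23 and Adamdec1 (0.977 to 0.964). C3ar1 was most like Csf1r, Trem2, Adora2b, Fcgr1 and Msr1 (0.982 to 0.959), and C5ar1 like Pilra, Itgam, Mcemp1, Gpr141 and Clec4d (0.980 to 0.960). Pla2g7, Spi1, Lrrc25 and Cd300c2 were among the 5 genes most like Cfp (0.942 to 0.935). Cfb and Cd55 had looser neighbours: Ptgfrn, Alas1, F3, Rtp4 and Pmepa1 for Cfb (0.802 to 0.772), and Hs3st1, Pmepa1, Akr1b8, Adm and Ddah1 for Cd55 (0.862 to 0.750). Between members, r was 0.889 for C5ar1 and Cfp, 0.877 for C3ar1 and Cfp, 0.841 for C3ar1 and C5ar1 and 0.833 for C3 and C4b.

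The myeloid cells were divided into 14 clusters without the complement genes, and the components and receptors took different places in them. Cluster 1 was neutrophil-like (Cxcr2, Retnlg; 601 CIN_high and 1464 CIN_low cells). It had C5ar1 at 4.91 and 4.70, C3ar1 at 0.0333 and 0.0430 and Cfb at 0.0225 and 0.0571, so 1 receptor gene was high and the other near 0. C3 in the same cells was 1.28 and 1.61.

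Cluster 3 was macrophage-like (Ms4a7, Mrc1, Apoe; 857 and 1158 cells) and had the most C3ar1 of the large clusters, at 2.83 and 3.04, with C5ar1 at 1.75 and 2.04. Its C3 was 2.97 and 5.32, its Cfb 1.34 and 2.23 and its Cfp 2.78 and 3.21. Cluster 2 was monocyte-like (Ccr2, Chil3, Vcan, Plac8; 836 and 1185 cells), with C3 at 2.09 and 2.87, Cfb at 1.72 and 2.62, and C3ar1 at 1.46 and 1.31. In cluster 4, led by Inhba, Il6, Nos2 and Arg1 (184 and 557 cells), C3 was 2.94 and 3.33 and Cfb 1.73 and 3.00. Cfb was highest in cluster 8, led by Ifit2, Rsad2 and other interferon-induced genes (46 and 34 cells), at 5.03 and 3.67.

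Cluster 6 was dendritic-like (Xcr1, Clec9a, Itgae; 148 and 163 cells) and kept Cfp, at 1.67 and 2.48, while C3ar1 was 0.0501 and 0.0743 and C5ar1 0.115 and 0.0999. Cluster 7, led by Ccr7, Fscn1 and Ccl22 and left unnamed, had less Cfp, at 0.395 and 0.234. C3 was 0.137 and 0.722 there and 0.441 and 0.272 in cluster 6, so the order of these clusters differed between the libraries. Cluster 5, led by Hcar2, Ccl4 and Cxcl3, was nearly all from the CIN_low library (396 of 402 cells). Its CIN_low cells had C5ar1 at 4.396 and C3ar1 at 0.0628, and a cluster of 1 library may be that library rather than a state.

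**Figure D3:**
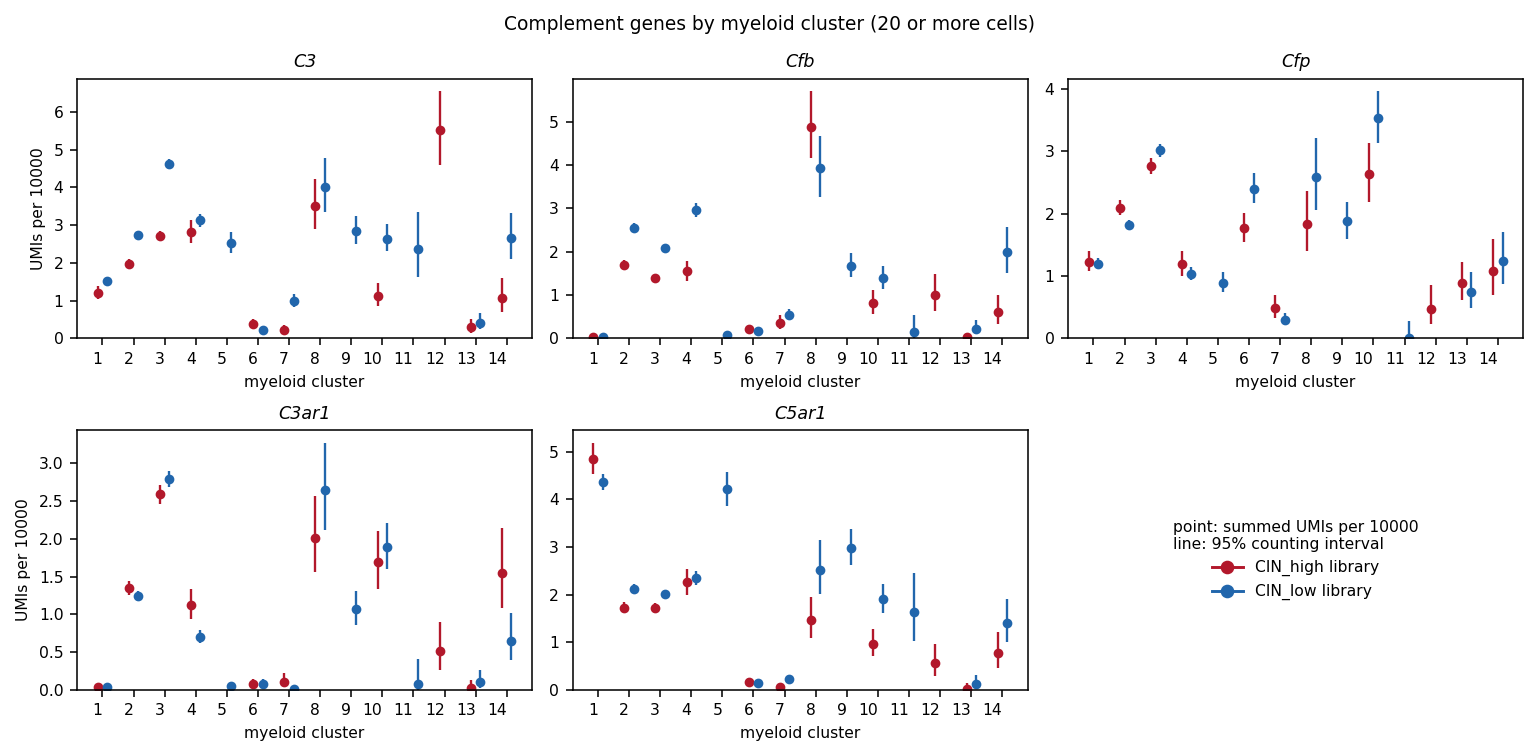
Summed UMIs of C3, Cfb, Cfp, C3ar1 and C5ar1 per 10000 UMIs (y axis, linear from 0) in the 14 myeloid clusters, for each library with at least 20 cells of the cluster, with 95% counting intervals. C5ar1 is high and C3ar1 near 0 in the neutrophil-like cluster 1, whereas C3ar1 peaks among the large clusters in the macrophage-like cluster 3.

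Endothelial clusters differed in which members they carried. In the cluster led by Ccl21a, Lyve1 and Mmrn1, genes of lymphatic vessels (127 CIN_high and 19 CIN_low cells), C3 was 3.10 and 6.26 and Cd55 1.57 and 1.14. In the cluster led by Ackr1, Sele and Madcam1, genes of venules (109 and 35 cells), Cfb was 1.09 and 2.06 and Cd55 1.51 and 2.16, with C3 at 0.0178 and 0.209. The cluster led by Cd36 and Car4 (173 and 19 cells) had little of any of the 3 genes, with C3 at 0.161 and 0.146.

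In the epithelium, Cd55 and Cfb were the members that stood out most from T and NK cells, the reference used here. After each cell was thinned to 2000 UMIs, a Cd55 UMI was found in 12.3% and 7.11% of epithelial cells against 0.559% and 0.926% of T and NK cells, and a Cfb UMI in 14.2% and 13.4% against 1.68% and 3.70%. For C3 these shares were 3.43% and 2.97% against 2.79% and 3.70%, so epithelial C3 as a whole was near the share of T and NK cells. The T and NK shares of C3 rested on 5 of 179 and 12 of 324 cells. The part of other cells' RNA in these shares was not tested. Before thinning, a Cd55 UMI was found in 46.6% and 33.2% of epithelial cells, at a median depth of 14030 and 15360 UMIs, against 3442 and 3666 in T and NK cells.

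Cd55 differed widely by subtype. It was 3.56 and 2.15 in enterocytes (107 and 98 cells), 1.30 and 0.993 in Stem_cell_1 (346 and 338), 0.569 and 0.603 in secretory cells (54 and 48) and 0.394 and 0.177 in Cancer_cell_1 (549 and 710). Proliferating cells (111 and 199) had 0.254 and 0.258, within the range of Cancer_cell_1. The p57+_cancer_cell subtype (77 and 211 cells) was lowest, at 0.0383 and 0.0574. Cfb was lowest in the same subtype, at 0.128 and 0.224, against 1.48 and 1.15 in enterocytes and 1.02 and 1.12 in Stem_cell_1. The p57+_cancer_cell subtype had the complement inhibitor gene Serping1 at 0.913 and 0.765. Serping1 was at most 0.170 in the other subtypes with at least 20 cells in both libraries.

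One subtype is named Complement+_stem_cell by the authors (39 and 85 cells), and its label was set against the data. Among subtypes with at least 20 cells in both libraries it was highest for C3, at 1.10 and 1.03, and for the myeloid genes Cfp (0.862 and 0.542), C3ar1 (0.629 and 0.585) and C5ar1 (0.462 and 0.580). The first subunit of C1q, C1qa, was far above the other subtypes, at 9.80 and 7.66 against 0.0861 and 0.155 in Stem_cell_1. Cd55 was 0.286 and 0.258, below Stem_cell_1, and the C4b ranges of Complement+_stem_cell and enterocytes overlapped (0.145 and 0.107 against 0.143 and 0.0574). Its name refers to complement, so these levels are a description of the subtype and no test of it.

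Macrophage markers moved with that subtype. All 7 had UMIs in both libraries, and they summed to 71.8 and 51.8, against 1.04 and 1.92 in Stem_cell_1. All 5 epithelial markers had UMIs and summed to 40.8 and 50.0, against 110.8 and 105.0. Median depth was 20840 and 21460 UMIs, against 14900 and 14710, and the doublet caller Scrublet marked 82.1% and 78.8% of its cells, against 0.867% and 0.888%. C3ar1 had 0.0646 and 0.0700 UMIs per UMI of C1qa there, near the 0.0667 and 0.0742 of myeloid cells. The data thus show UMIs of macrophage and epithelial genes under the same barcodes, and this subtype is called by its deposited label here without being taken for a stem cell state. The part of doublets in these values was not tested.

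C3 and C4b were higher still in the Igfbp+_cell subtype, which had 25 cells, all of the CIN_high library. C3 was 8.33 and C4b 3.20. The 5 fibroblast markers all had UMIs there and summed to 21.8, against 0.0408 in Stem_cell_1, and 52% of the cells were marked as doublets. C4b had 0.237 UMIs per UMI of Dcn, a fibroblast matrix gene, and 0.294 and 0.281 in fibroblasts themselves. These 25 cells held 351 of the 660 C3 UMIs and 174 of the 269 C4b UMIs of the CIN_high epithelium. The part of fibroblast RNA in these values was not tested. The S100a8/s100a9+_cell subtype (8 and 36 cells) had C5ar1 at 1.45 and 0.850 and no C3ar1 UMI, and 87.5% and 77.8% of its cells were marked as doublets.

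**Figure D4:**
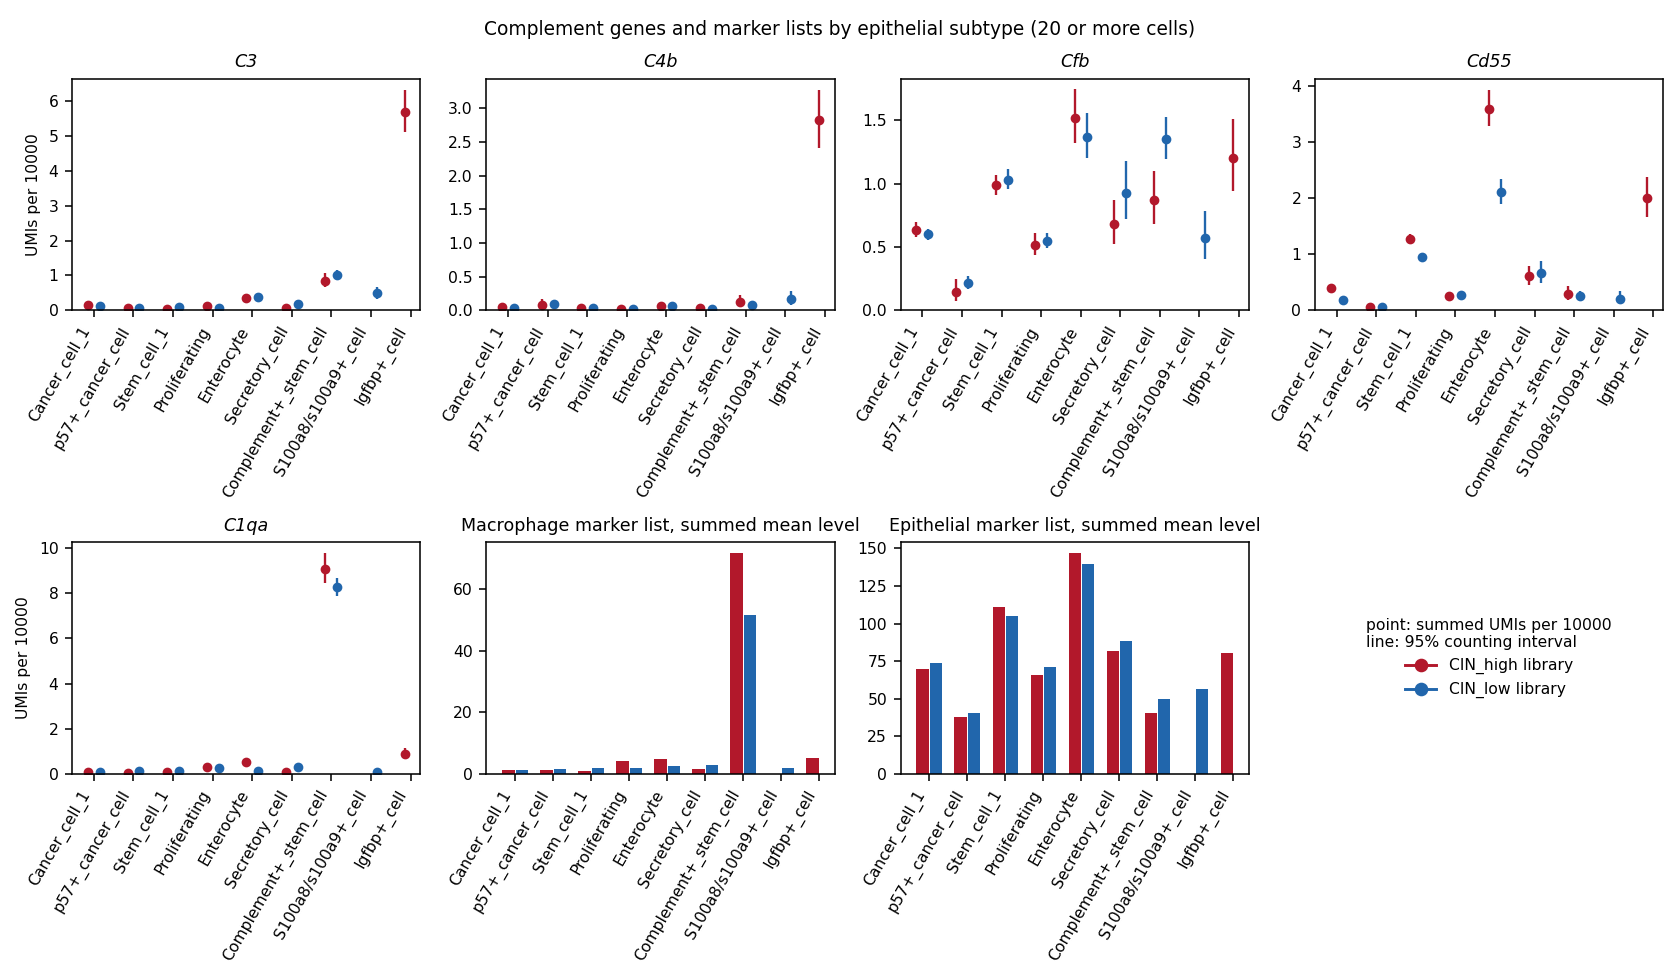
Summed UMIs of C3, C4b, Cfb, Cd55 and C1qa per 10000 UMIs (points, with 95% counting intervals) and the summed mean level of the macrophage and epithelial marker lists (bars, UMIs per 10000) by epithelial subtype and library, for 20 or more cells. Cd55 was highest in enterocytes, C3 and C4b in Igfbp+_cell, and C1qa and macrophage markers in Complement+_stem_cell.

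Epithelial cells with C3 more often had Cfb. At a depth thinned to 5000 UMIs, 41.7% of 84 CIN_high cells with a C3 UMI also had a Cfb UMI (interval 31.0% to 52.9%), against 26.7% of 1123 cells without one (24.2% to 29.4%). In the CIN_low library it was 39.5% of 114 cells (30.5% to 49.1%) against 26.7% of 1509 (24.5% to 29.0%). Without the Complement+_stem_cell, S100a8/s100a9+_cell and Igfbp+_cell subtypes the shares were 36.8% (24.5% to 50.7%) against 26.4% and 39.7% (28.5% to 51.9%) against 26.8%, and the intervals of cells with and without C3 then overlapped in both libraries. For C3 and C4b together, 19.0% of CIN_high cells with C3 had C4b, against 2.31% of cells without C3, and 5.26% against 2.04% did without those subtypes. In the CIN_low library these shares were 6.14% against 2.12%, and 5.48% against 1.96%. The C4b intervals of cells with and without C3 overlapped in the CIN_low library in both cases. Without those subtypes they overlapped in the CIN_high library too, and the shares with C3 were 3 of 57 and 4 of 73 cells. C1qa, a myeloid gene, was also more frequent in cells with C3 at this depth. Its shares were 16.7% against 5.61% (CIN_high) and 21.9% against 6.23% (CIN_low). Without those subtypes they were 7.02% against 4.17% and 10.96% against 4.82%. The shares with C3 were then 4 of 57 and 8 of 73 cells, and the intervals overlapped in both libraries. At the deposited depth Dcn was found in 16.1% against 4.31% of CIN_high cells and 1.075% against 0.968% of CIN_low cells. The part of other cells' RNA in these shares was not tested.

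Between the libraries, a gene counted as measured where 2% or more of 1 library's cells held a UMI of it, and as higher or lower at 1.5-fold. In epithelium all 7 members were measured. C3, C4b and Cd55 were higher in the CIN_high library, where 4.16% of 13304 measured genes were higher, and C5ar1 was lower, as were 7.70%. Cd55 was 1.93-fold higher (0.887 against 0.461, summed UMI ratio 1.746 to 2.004), C3 1.81-fold (0.328 against 0.181, 1.504 to 1.886) and C4b 2.62-fold (0.117 against 0.0446, 2.30 to 3.50). C5ar1 was 1.68-fold lower (0.0415 against 0.0698). The median over the members was 0.10 on the log2 scale, and over all measured genes -0.10.

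These epithelial differences were not alike once the subtypes were held apart. Without the Complement+_stem_cell, S100a8/s100a9+_cell and Igfbp+_cell subtypes C3 was 0.144 against 0.130 and C4b 0.0543 against 0.0382, both under 1.5-fold, while Cd55 was 0.891 against 0.477 (1.87-fold) and C3ar1 0.0239 against 0.0130. The subtype mix was also set equal over the subtypes present in both libraries, which leaves out Igfbp+_cell. No member then passed 1.5-fold, and Cd55 was at 0.776 against 0.520 (1.49-fold). Fibroblast markers moved with C3 and C4b in the whole epithelium: their sum was 0.481 in the CIN_high and 0.0271 in the CIN_low library, with Lum at 0 in the latter. Their part in these differences was not tested.

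Within subtypes, Cd55 was 2.23-fold higher in the CIN_high library in Cancer_cell_1 (1.80 to 2.56) and 1.65-fold in enterocytes (1.48 to 1.96). In Stem_cell_1 it was 1.31-fold higher (1.21 to 1.501) and in proliferating cells 0.254 against 0.258. In Cancer_cell_1 C4b was higher too and Cfp lower, so 2 of 5 measured members were higher and 1 lower, where 5.98% of genes were higher and 8.48% lower. There C4b rested on 42 and 39 UMIs and Cfp on 14 and 41. The counting intervals of summed C4b overlapped (0.0377 to 0.0707 in CIN_high and 0.0234 to 0.0451 in CIN_low). In enterocytes 4 of 7 were higher (C4b, Cfp, C3ar1 and Cd55) and none lower, where 18.3% of genes were higher and 22.7% lower, and the first 3 of these rested on 11 or fewer UMIs in each library. C3 went both ways: 0.103 against 0.0590 in proliferating cells (35 and 34 UMIs) and 0.0377 against 0.120 in Stem_cell_1 (20 and 68 UMIs). In proliferating cells 2 of 7 members were higher, where 11.4% of genes were higher and 13.6% lower. In Stem_cell_1 2 of 7 were lower, where 8.69% of genes were higher and 13% lower. The p57+_cancer_cell subtype had 1 of 6 higher (C3ar1, on 3 and 5 UMIs) and 1 lower (Cfb), where 17.7% of genes were higher and 15.9% lower.

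**Figure D5:**
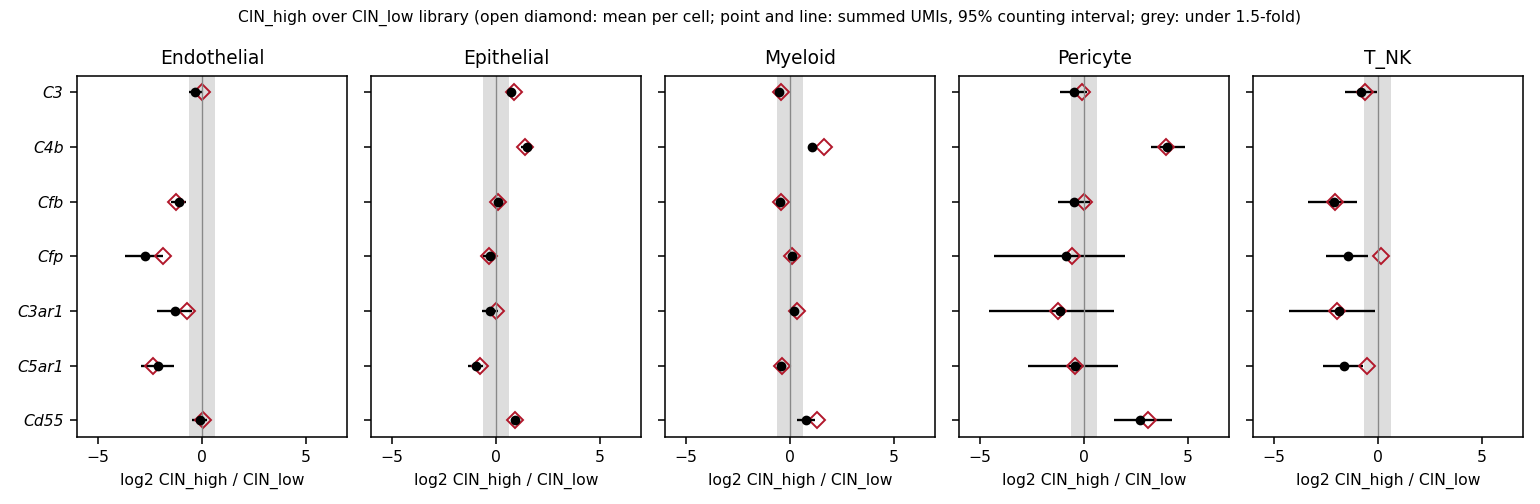
Ratio of the CIN_high to the CIN_low library on the log2 scale (x axis) for each measured member in 5 cell types, from the mean level per cell (open diamonds) and from summed UMIs (points, with 95% counting intervals), and the range under 1.5-fold in grey. Epithelial C3, C4b and Cd55 lie to the right of the grey range and 4 endothelial genes to the left.

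In myeloid cells the abundant members differed by under 1.5-fold. C3 was 1.36-fold lower in the CIN_high library (1.36 to 1.47 by summed UMIs), Cfb 1.33-fold lower (1.34 to 1.47) and C5ar1 1.29-fold lower (1.27 to 1.37). C3ar1 was 1.27-fold higher and Cfp 1.06-fold higher. Only C4b and Cd55 passed 1.5-fold of the 7 measured, both higher, where 7.83% of 9772 genes were higher and 3.30% lower. Cluster 12, with 69 of its 70 cells from the CIN_high library and a fibroblast marker sum of 40.5, had C4b at 6.78 and Cd55 at 2.75. Without clusters 12 to 14, which were led by fibroblast, T cell and epithelial genes, C4b was 0.166 against 0.102 (1.62-fold) and Cd55 0.0299 against 0.0391, in the other direction.

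C3 and Cfb were both lower past 1.5-fold in the macrophage-like cells of the CIN_high library, by 1.79-fold for C3 (1.61 to 1.80) and 1.67-fold for Cfb (1.39 to 1.63), where 6.38% of 10243 genes were lower and 4.08% higher. In the monocyte-like cluster, C3 was 1.37-fold lower (1.30 to 1.49) and Cfb 1.53-fold lower (1.40 to 1.63), where 4.49% of genes were lower and 4.24% higher. C4b was higher in the macrophage-like and lower in the monocyte-like cluster (0.302 against 0.125 and 0.142 against 0.220). In the neutrophil-like cluster C3 was 1.26-fold lower and C5ar1 1.05-fold higher (1.03 to 1.203). There 1 of 4 measured members passed 1.5-fold, Cd55, which was lower on 17 and 75 UMIs, where 23.6% of genes were higher and 8.11% lower.

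In cluster 4, Cfb was 1.73-fold lower (1.63 to 2.24) and C3ar1 1.53-fold higher (1.29 to 1.97) of 6 measured, where 15.0% of genes were higher and 11.3% lower. In the dendritic-like cluster, C3 was the 1 of 5 that passed and was higher (50 and 38 UMIs), where 17.9% of genes were higher and 15.6% lower. In cluster 7, C3 (13 and 131 UMIs), Cfb and C5ar1 were lower and Cfp higher of 4 measured, where 21.6% of genes were higher and 20.4% lower. The differences between clusters were not tested.

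In endothelial cells 4 of 6 measured members were lower in the CIN_high library, where 19.6% of 11114 genes were lower and 12.8% higher. These were Cfb (0.358 against 0.858, 1.70-fold to 2.80-fold by summed UMIs), Cfp, C3ar1 and C5ar1. Neutrophil markers moved with them, at a sum of 9.18 against 47.0 with all 5 seen in both libraries. Without cluster 6, led by myeloid genes, Cfb was 0.323 against 0.838 (2.599-fold), Cfp 0.0270 against 0.0593, C5ar1 0.0138 against 0.0563 and C3ar1 under 1.5-fold. C3 (0.843 and 0.849) and Cd55 (0.669 and 0.650) were near equal as mean levels over the whole type. For C3 this did not hold in parts of it. In the cluster led by Ccl21a (127 and 19 cells) C3 was 3.10 against 6.26. Without cluster 6, whole-type C3 was 0.788 against 0.654, and by summed UMIs of all cells it was 0.832 against 1.043.

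Of the 5 types compared, pericytes (83 and 58 cells) had the widest ratio among the members counted as measured. C4b was 15.6-fold higher in the CIN_high library (4.66 against 0.299, 9.39 to 28.8), with a UMI in 51.8% and 15.5% of cells. Cd55 was 8.44-fold higher (0.711 against 0.0842, 2.74 to 19.1) on 35 and 6 UMIs. C3ar1, on 2 and 5 UMIs, was the 1 lower member of 7 measured. In these cells 25.7% of 12404 genes were higher and 24.2% lower. Fibroblast markers moved the other way, with all 5 seen and a sum of 32.9 in the CIN_high and 61.2 in the CIN_low library. C4b had 0.275 UMIs per UMI of Dcn in the CIN_high and 0.00892 in the CIN_low pericytes. In fibroblasts this ratio was 0.294 (CIN_high) and 0.281 (CIN_low). The part of fibroblast RNA in these values was not tested.

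In T and NK cells 3 of 5 measured members were lower in the CIN_high library (Cfb, C3ar1 and C3), where 16.7% of 9909 genes were lower and 13.4% higher. They rested on 8 and 65 UMIs for Cfb, 3 and 21 for C3ar1 and 20 and 66 for C3. C3 was under 1.5-fold without the 5% deepest cells (1.17-fold), without cells under 2000 UMIs (1.22-fold) and without mitochondrial and ribosomal genes in the denominator (1.46-fold). Neutrophil markers, all 5 with UMIs, summed to 16.4 and 40.6 in the same cells, and the part of other cells' RNA in these values was not tested.

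The other complement genes gave the setting of the members. Fibroblasts carried the classical proteases C1s1 (12.1 and 9.52) and C1ra (7.65 and 5.02) and the C1 inhibitor gene Serping1 (14.8 and 10.8). Pericytes had Serping1 at 7.81 and 13.3. C1qa was a myeloid gene at 17.3 and 12.6. Hc, which codes for C5, was at most 0.0282 in any type, and the inhibitor gene Cd59a was at most 0.269 in endothelial cells, 0.199 in pericytes and 0.00967 in epithelium, and 0.0727 and 0.9285 in the 966 and 21 fibroblasts. In the Unknwon cells it was 6.36 and 6.40. Cr1l, a mouse regulator of C3 convertases, ranged from 0.553 to 1.39 over the 7 types.

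Between the libraries, 3 of 17 measured other genes were higher and 4 lower in the CIN_high epithelium: C1s1 (7.16-fold), C1ra (3.20-fold) and Clu (1.77-fold, 3.36 against 1.90) were higher, and the integrin genes Itgb2, Itgax and Itgam and the regulator gene Cd46 lower by 1.65-fold to 1.89-fold. C1qa (0.448 and 0.499), Cr1l (0.599 and 0.656) and Serping1 (0.174 and 0.197) did not pass 1.5-fold. Over all measured genes 4.16% were higher and 7.70% lower. In myeloid cells 5 of 14 were higher, among them C1s1 (19.1-fold), Serping1 (12.8-fold) and C6 (0.110 against 0.0393), and none lower, where 7.83% of all measured genes were higher and 3.30% lower. Fibroblast markers summed to 1.12 against 0.0524 in the same cells. In endothelial cells 2 of 16 were higher, among them Serping1 (1.58-fold, 1.98 against 1.25), and 6 were lower, among them Itgax, C1qc, Itgb2 and C1qb by 2.95-fold to 4.09-fold, where 12.8% of all measured genes were higher and 19.6% lower. In pericytes 2 of 17 were higher and 14 lower, where 25.7% of all measured genes were higher and 24.2% lower. In T and NK cells 1 of 9 was higher and 5 lower, where 13.4% of all measured genes were higher and 16.7% lower.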

How the data were processed

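Single-cell RNA was measured on the 10x platform in 2 samples. Cell Ranger 2.1.1, Seurat and the build mm10 are named in the submitters' processing notes. The authors deposited natural log values, ln(1 + UMIs per 10000 UMIs of the cell), with cell type, epithelial subtype and CIN class files. In every cell the inverse summed to 10000 and gave whole UMIs within 0.01, so UMIs were recovered. Levels, ratios and exact 95% counting intervals were computed from them with numpy 2.4.6 and scipy 1.17.1. The authors' types and subtypes were used. Myeloid, fibroblast and endothelial cells were clustered with scikit-learn 1.9.0 and leidenalg 0.10.2 (1500 variable genes without complement genes, 30 components, resolution 0.5 or 0.4). Doublets were marked with Scrublet at an expected 6% and kept. Orders, likeness and figures used groups of at least 20 cells, and ratios at least 50. Levels of smaller groups are printed with their cell number. The scripts were checked on simulated data.

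The members and lists were chosen with earlier results of these data known. The 7 members were always named. Of the other complement genes, up to 4 in each direction with the widest ratio were named per type, and C1qa, Cd59a, Cr1l, Hc and Serping1 in any case. Some genes that these rules name are not reported here. Marker groups, doublets, shallow cells, thresholds, the subtype mix and the clustering resolution were varied.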

Additional observations from a re-analysis of the deposited data

Results flagged for a closer look

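C3 and C4b differed between the libraries in opposite directions in different groups of cells. The values are log2 ratios of the CIN_high to the CIN_low level, and the difference between the groups was not tested, since each class is 1 library. Over whole types, C3 was at 0.85 in the epithelium against -0.61 in T and NK cells. Both were under 1.5-fold in some alternatives. In the epithelium C3 was at 0.35 without marked doublets and at 0.15 without the complement, S100a8 and Igfbp subtypes. It was at 0.05 with the subtype mix standardised over shared subtypes, which leaves out Igfbp+_cell. In T and NK cells it was at -0.23 without the 5% deepest cells and -0.29 without cells under 2000 UMIs. Within epithelium, C3 was at 0.81 in proliferating cells and -1.67 in Stem_cell_1. Within myeloid cells, C3 was at 0.70 in the dendritic-like cluster 6, against -0.84 in the macrophage-like cluster 3 and -2.40 in cluster 7. C4b was at 1.27 in the macrophage-like cluster 3 and -0.62 in the monocyte-like cluster 2.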

How the results depend on the processing

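Of 187 member ratios recomputed under the alternatives, 161 moved by less than the counting interval of the ratio, 25 by more, and 1 that had passed 1.5-fold changed direction: myeloid Cd55, at -0.39 on the log2 scale without myeloid clusters 12 to 14, an alternative chosen after seeing the data. Some ratios under 1.5-fold changed direction too, among them Cfp in T and NK cells, from 0.18 to -1.40 by summed UMIs. The 4 epithelial members past 1.5-fold became 1 at 2-fold, C4b. Without the complement, S100a8 and Igfbp subtypes 2 members passed. These were Cd55, and C3ar1, which had been 1.02-fold in the main comparison. C3, C4b and C5ar1 (1.295-fold lower) no longer passed. Without marked doublets epithelial C3 was 1.27-fold higher, under 1.5-fold, C4b was 1.70-fold higher and Cfp 1.72-fold lower. With the subtype mix standardised over shared subtypes the number that passed was 0. The 2 myeloid members became 1 without marked doublets, without cells under 2000 UMIs, without clusters 12 to 14 and with a UMI required in 5% of cells. Without marked doublets Cd55 was still 2.32-fold higher but fell under the 2% of cells required, and without cells under 2000 UMIs it was 1.07-fold higher. The 3 T and NK members became 5 by summed UMIs, with Cfp and C5ar1 added, both lower in the CIN_high library. At 1% of cells they became 5 with C4b and Cd55 added, both higher in the CIN_high library. The added genes rested on 3 and 2 UMIs for C4b and 4 and 3 UMIs for Cd55. At 5% of cells 1 passed. Other complement genes over the 5 types, 13 higher and 29 lower, became 7 higher at 5% of cells, and 8 higher and 18 lower at 2-fold. The share of C3-positive epithelial cells with Cfb, 65.6% and 70.6% at the deposited depth, became 41.7% and 39.5% when thinned. At resolution 1.0 the highest myeloid cluster level over both libraries rose from 2.95 to 3.35 for C3ar1 and from 4.76 to 5.15 for C5ar1. The cause of these changes was not tested. No paired analysis was possible because each class is 1 library.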
